A study of Mus musculus with 15 samples.

Results

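The cytosolic ribosomal protein genes were taken as every protein-coding gene whose mouse symbol begins with Rpl or Rps and a number, together with Rplp0, Rplp1, Rplp2 and Rpsa. Pseudogenes and the Rps6k kinases were left out. The rule uses symbols and annotation only, and it found 86 members among the 43432 genes of the count table. Of these, 77 encode the core proteins of the ribosome (46 of the large and 31 of the small subunit), 7 are paralogues of a core gene (Rpl3l, Rpl10l, Rpl22l1, Rpl36al, Rpl39l, Rps27l and Rps27rt), and 2, Rps19bp1 and Rpl7l1, carry a family name although their products are not counted as structural subunits. A further 263 named pseudogenes and 10 kinase genes share the symbols and were not members.

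The ribosome is built from ribosomal RNA and one copy of most of these proteins, except for the stalk proteins Rplp1 and Rplp2, which are present in several copies. Their mRNAs are among the most abundant in dividing cells. Many begin with a cytosine followed by a run of pyrimidines at the transcription start, the TOP motif (terminal oligopyrimidine tract), through which mTOR signalling and the RNA-binding protein Larp1 control their translation.

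RNA came from mouse embryonic fibroblasts (MEFs, primary connective tissue cells) infected with a lentivirus that expressed Neurog1 or Neurog3, proneural basic helix-loop-helix transcription factors that the labels call Ngn1 and Ngn3, after addition of doxycycline on day 0. Libraries labelled day 1 and day 13 were made for each factor, and the medium was changed on day 2 from DMEM with serum to a neuronal medium of DMEM/F12, GlutaMAX, N2 and B27. There were 5 groups of 3 libraries (replicates a, b and c): the controls, and each of the factors at each of the days. For the controls, the virus, the doxycycline, the medium and the day of collection were not given in the sources used here, so at day 13 the factor, the time and the medium cannot be told apart. No source used here states whether replicates were separate cultures, so the p-values measure the spread between these libraries, which may be technical.

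Library totals lay between 14869015 and 17859844 counts. Neurog1 had 16252 to 80443 counts in the libraries labelled Neurog1 and at most 12 elsewhere, and Neurog3 had 20393 to 98008 in those labelled Neurog3 and at most 13 elsewhere. All 12 genes of a fibroblast marker list had counts in every group, with a summed level of 8308 to 10304 CPM (the count divided by the library's total, times 1e+06; levels called TMM-scaled are also divided by the library's TMM factor) in the controls, 5195 to 7871 at day 1 and 13206 to 38541 at day 13. A list of 12 neuronal markers summed to 134 to 168 CPM in the controls, 157 to 249 at day 1 and 722 to 1970 at day 13. Macrophage markers summed to 132 to 222, 34.1 to 76.4 and 21.4 to 319 CPM in the same order, and skeletal muscle markers to 115 to 154, 26.9 to 47.1 and 18.7 to 181 CPM, with Ckm at 0 in the controls and in both Neurog3 groups. Mitochondrially encoded genes took 3.06% to 3.91% of counts in the controls, 2.48% to 4.21% at day 1 and 1.66% to 3.22% at day 13. The part of these differences in the results below was not tested.

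The starts of the genes are shown first, since the TOP motif is the feature that the family is known to share and the rule did not use it. Promoter entries from RefSeq (GRCm38.p6) matched 66 of the 86 members. Each line gives 30 bases before and 30 bases from the annotated start, with the longest run of C and T in capitals. Where a member had several entries, the one with the longest run is shown. The first 3 are among the members with the longest runs, and the others belong to some of the members described below.
Rpl7a (chr2:26910777-26910836, plus strand): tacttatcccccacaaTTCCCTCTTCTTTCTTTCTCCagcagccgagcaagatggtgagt
Rpl27a (chr7:109519165-109519224, plus strand): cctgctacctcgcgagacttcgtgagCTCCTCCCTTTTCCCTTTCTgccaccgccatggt
Rpl34 (chr3:130730308-130730367, minus strand): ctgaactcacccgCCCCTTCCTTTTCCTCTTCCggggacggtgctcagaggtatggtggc
Rps27 (chr3:90213619-90213678, minus strand): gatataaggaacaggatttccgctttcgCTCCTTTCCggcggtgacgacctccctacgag
Rps27rt (chr9:114982710-114982769, minus strand): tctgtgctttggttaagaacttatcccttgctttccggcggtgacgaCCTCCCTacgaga
Rps27l (chr9:66946056-66946115, plus strand): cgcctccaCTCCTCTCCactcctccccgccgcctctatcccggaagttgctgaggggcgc
Rpl22l1 (chr3:28805478-28805537, plus strand): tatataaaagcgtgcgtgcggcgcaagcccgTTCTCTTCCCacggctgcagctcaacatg
Rpl39l (chr16:10170198-10170257, plus strand): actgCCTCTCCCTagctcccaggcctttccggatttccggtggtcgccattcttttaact
Rpl24 (chr16:55966245-55966304, plus strand): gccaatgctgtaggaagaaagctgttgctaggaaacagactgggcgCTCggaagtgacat
Rps2 (chr17:24720033-24720092, plus strand): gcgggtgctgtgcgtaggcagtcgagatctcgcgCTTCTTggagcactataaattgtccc
Rpsa (chr9:120127736-120127795, plus strand): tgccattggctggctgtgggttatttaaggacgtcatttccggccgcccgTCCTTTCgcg

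In Rpl7a the run spans 21 bases and in Rpl27a and Rpl34 20. Rpl24 has no run longer than 3 bases in this window, Rpl36al (not shown) none longer than 5, Rps2 none longer than 6 and Rpsa none longer than 7. The capital runs of Rps27l and Rpl39l lie wholly before the annotated start, so a run in this window need not be a TOP motif. Matches were counted per gene symbol, in any of its promoter entries. A run of at least 8 pyrimidines on the sense strand lay within these 60 bases in 35 of the 66 members (53.0%), against 25.8% of the 27025 gene symbols in the table. In the full 300 bases, CTTTCC on the sense strand occurred in 27 of the 66 members (40.9%) and in 4328 of the 27025 symbols. The letters CCGGAAGT, on either strand, the core recognised by ETS-family factors, occurred in 18.2% and 4.31%, and AAGATGGCG, on either strand, part of the YY1 motif, in 6.06% and 1.64%. TATAAA on the sense strand occurred in 9.09% and 9.77%. Runs of C and T can contain CTTTCC, so these counts overlap, and a match in a window is a description of the letters only.

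At day 13 the ribosomal protein genes together held a little over 0.5 times the share of counts, on library totals, that they held in the controls, with either factor, and at day 1 their share overlapped that of the controls. The 86 members took 6.34%, 9.63% and 8.50% of all counts in control replicates a, b and c, a mean of 8.15% ± 1.67 (SD, n = 3). With Neurog1 at day 1 they took 7.80%, 7.34% and 9.84% (8.33% ± 1.33), and with Neurog3 at day 1 7.70%, 7.41% and 7.46% (7.52% ± 0.157). Each of the 6 libraries of day 1 lay inside or just above the range of the controls. With Neurog1 at day 13 the shares were 5.64%, 3.73% and 3.63% (4.34% ± 1.13), and with Neurog3 at day 13 5.35%, 3.51% and 4.07% (4.31% ± 0.943). Every day 13 library was below every library of the controls and of day 1. The nearest were control replicate a, at 6.34%, and Neurog1 day 13 replicate a, at 5.64%. The ratio of group means was 0.532 for Neurog1 at day 13 over control and 0.528 for Neurog3, and 0.521 and 0.573 over the same factor at day 1. No p is given for this sum, which is a score over the chosen members. In bulk RNA, fewer cells of a type and less RNA per cell cannot be told apart, and a share says nothing of the amount of ribosomal protein mRNA in a cell.

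Replicate a had the highest share at day 13 with both factors. The same 2 libraries had the fewest Neurog counts of their group, 22766 for Neurog1 and 22349 for Neurog3, against 61015 to 98008 in the other day 13 libraries. They also had the lowest summed neuronal markers of their group (722 CPM with Neurog1 and 799 with Neurog3, against 1610.2 and 1970, and 924 and 813) and the highest summed macrophage markers (123 and 319 CPM, against 75.5 and 36.1, and 30.3 and 21.4). The part of these in the share was not tested. With replicate a of both factors left out, a comparison added after the data were seen, the counts of members that fell are given below. The summed core genes of the large subunit exceeded those of the small subunit by a factor of 1.25 to 1.42 in the 15 libraries, and this ratio was 1.34 ± 0.021 in the controls and lay between 1.29 and 1.40 at day 13. The lowest ratios of the Neurog1 day 1, Neurog3 day 1 and Neurog3 day 13 groups were all in replicate c (1.25, 1.28 and 1.29). The named pseudogenes of the family held 2.21% to 3.08% of the counts of genes and pseudogenes together, with the highest value in Neurog3 day 1 replicate b.

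**Figure D1:**
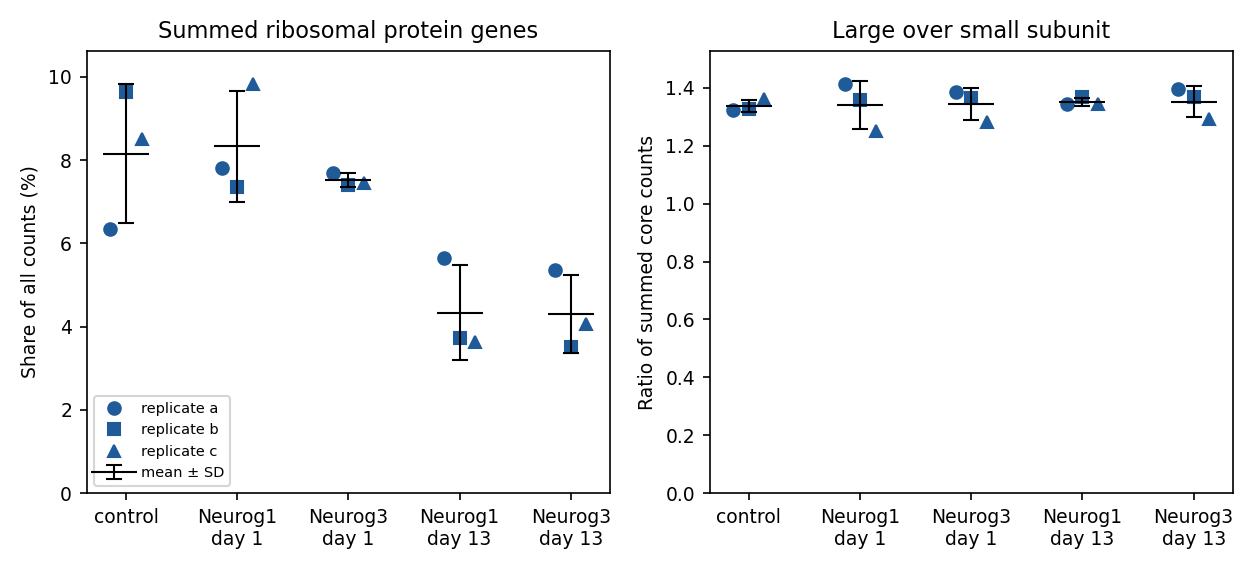
Left, the share of all counts (%) taken by the 86 ribosomal protein genes in each library, by group; right, the ratio of summed large to summed small subunit core counts. Points are libraries (replicates a, b, c) and bars the mean ± SD. The 6 day 13 libraries lie between 3.51% and 5.64%, below all others, while the ratio stays between 1.25 and 1.42.

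Member by member, the fall at day 13 was shared by nearly the whole family. Of the 86 members, 84 passed the expression filter. Rpl10l, a copy of the X-linked Rpl10 used in the male germ line, had 0 counts in every library, and Rpl3l, a paralogue of Rpl3 known from heart and skeletal muscle, had 13 counts in all 15 libraries. In Neurog1 at day 13 against the controls, 82 of the 84 fell and 0 rose (edgeR quasi-likelihood test, adjusted p under 0.05), whereas 26.8% of the 16872 genes tested fell and 32.6% rose. In Neurog3 at day 13 against the controls, 80 fell and 0 rose, with 26.4% and 31.2% of all genes. Both comparisons use the same 3 controls. Against day 1 of the same factor, 82 members fell with Neurog1 (27.3% of all genes fell and 30.6% rose) and 81 with Neurog3 (26.8% and 29.0%), and 0 rose in either. The same 80 members fell in all 4 comparisons.

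The median log2 fold change of the members was -1.18 with Neurog1 and -1.21 with Neurog3 against the controls, and -1.23 and -1.03 against day 1, where the median of all genes tested was 0.10, 0.096, 0.085 and 0.071. Members that fell at least 2-fold numbered 69 and 70 against the controls, where 18% of all genes tested did so with each factor, and 72 and 50 against day 1, where 18.3% and 17.8% did. Groups did not overlap for 78 and 82 members against the controls (64.8% and 62.7% of all genes, in either direction) and for 81 and 78 against day 1 (65.1% and 60.1%). The values lay close together: 81, 82, 81 and 80 of the 84 were within 0.5 of the members' median. Core genes of the large and the small subunit had medians of -1.15 and -1.19 with Neurog1 and of -1.18 and -1.24 with Neurog3 against the controls. Scaling by library totals moved the median of all genes to 0.40, 0.40, 0.37 and 0.31 and left the members' median at -0.90, -0.92, -0.96 and -0.78, with 76, 76, 79 and 71 members that fell. Without replicate a of both factors, 83 members fell with Neurog1 and 82 with Neurog3 against the controls.

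**Figure D2:**
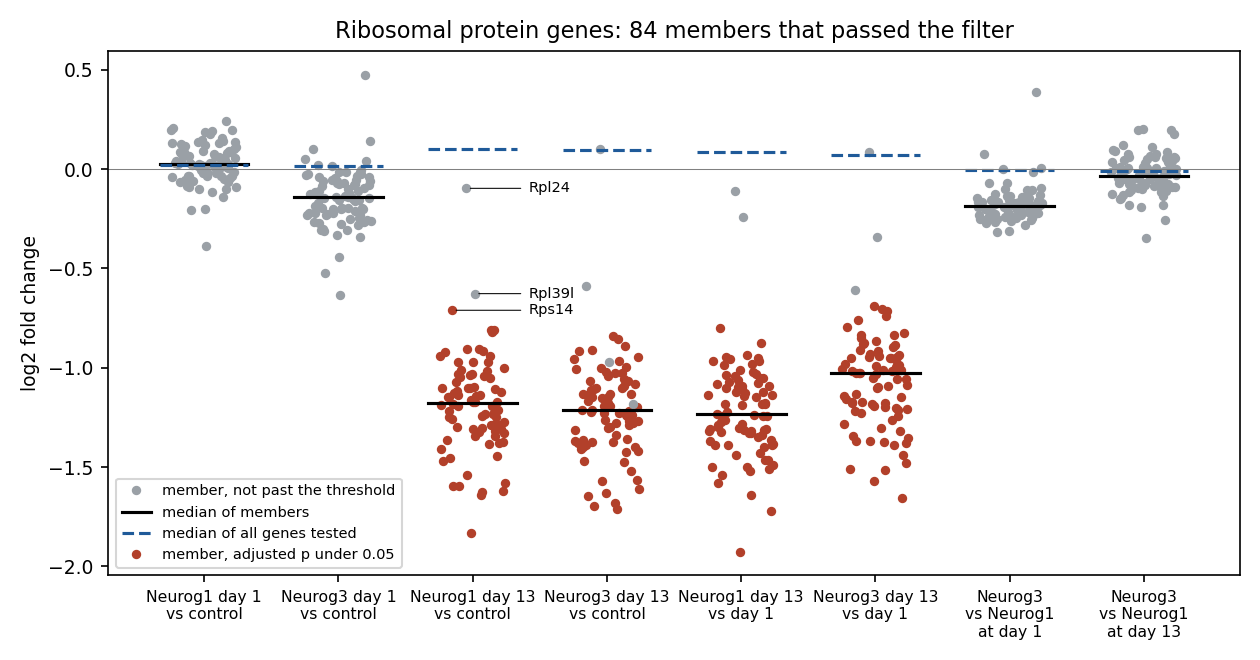
Log2 fold change (y axis) of each of the 84 members that passed the filter in the 8 pairwise comparisons (x axis); red points passed adjusted p under 0.05 and grey points did not, the black line is the members' median and the dashed line that of all genes tested. At day 13 the members lie near -1.2 to -1.0 with Rpl24 far above them, and at day 1 and between the factors they lie near 0.

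At day 1 no member passed the test. In Neurog1 at day 1 against the controls, 0 of 84 rose or fell by edgeR, 0 had an unadjusted p under 0.05, and DESeq2 also gave 0 (6.78% of all genes rose and 5.42% fell). In Neurog3 at day 1 the counts were 0, 0 and 0 as well (7.19% and 5.59%). The medians of the members were 0.027 and -0.14. Leaving out 1 library at a time turned the sign of the first, from -0.15 without Neurog1 day 1 replicate c to 0.14 without replicate b, and moved the second between -0.26 without control replicate a and -0.031 without control replicate b.

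The factors were also set against each other. At day 1, 81 of the 84 members had a lower fitted value with Neurog3 than with Neurog1 (median -0.18), but 0 passed edgeR's test, 0 had an unadjusted p under 0.05 (2 with the replicate block within day 1) and DESeq2 gave 0 (0.00593% of all genes rose and 0.00593% fell). Without Neurog1 day 1 replicate c, the library with the highest share, the median was -0.0070. At day 13 the median was -0.033, again with 0, 0 and 0 (0.00593% rose and 0.0178% fell), and it ranged from -0.24 without Neurog3 day 13 replicate a to 0.26 without Neurog1 day 13 replicate a. The change between days did not differ between the factors for any member by the interaction term, with 0 by edgeR, 0 at an unadjusted p under 0.05 and 0 by DESeq2 (0.0% of all genes in either direction). A p that misses the threshold does not show that the factors act alike.

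The member that stood apart was Rpl24 (ENSMUSG00000098274, chr16:55966275-55971435, plus strand), a protein of the large subunit at the interface with the small one, in which a splicing mutation causes the Belly spot and tail mouse. Its TMM-scaled level in CPM was 3.90, 5.95 and 3.86 in control replicates a, b and c, 4.402, 3.41 and 6.06 in the Neurog1 and 5.69, 4.06 and 4.11 in the Neurog3 libraries of day 1, and 5.21, 4.89 and 2.73 in the Neurog1 and 6.16, 4.51 and 4.04 in the Neurog3 libraries of day 13. The day 13 groups overlapped both the controls and day 1. Its log2 fold change was -0.097 (SE 0.34, adjusted p = 0.82) with Neurog1 and 0.10 (SE 0.34, adjusted p = 0.81) with Neurog3 against the controls, and -0.11 (SE 0.34, adjusted p = 0.79) and 0.088 (SE 0.34, adjusted p = 0.84) against day 1. It was the single member more than 1 log2 unit from the members' median in any of the 8 pairwise comparisons, and it passed that limit in the 4 that set day 13 against the controls or day 1. Between days with Neurog1, Rpl39l lay 0.99 above that median, just inside the limit, and Rpl24 1.12 above it. Rpl24 had 1158 counts over the 15 libraries, fewer than any other core gene: its level per length was 6.79 CPM per kb, and the next lowest core gene, Rpl21, had 256. Of its annotated transcript sequence, 81.7% of all 50-base windows also occur exactly in another gene's transcripts. A further 13 members share at least as large a part. Their levels ran from 66.9 CPM per kb in Rps27rt (91.1% shared) and 520 in Rpl36a (85.5%) to 1541 in Rpl10 (92.1%) and 1903 in Rps18 (86.7%). How reads with several matches were counted was not given in the sources used here, so the level of Rpl24 is uncertain, and the part of shared sequence in its value was not tested.

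Differences among the members were then read against the family itself, in a fit in which each library was scaled to its summed member counts. By construction this scale sets the family near 0, and on it 63.8% of all genes rose and 5.31% fell with Neurog1 against the controls, 63.4% and 5.76% with Neurog3, 64.5% and 4.71% between days with Neurog1, and 59.3% and 6.26% between days with Neurog3. Of the 84 members, 2 rose and 4 fell, 2 and 3, 2 and 3, and 1 and 2 in these comparisons. In each comparison and direction this was a smaller part than that of all genes on this scale, so the counts do not set the members apart. At day 1 against the controls 0 members passed on this scale, where 4.09% of all genes rose and 3.47% fell with Neurog1 and 5.07% and 2.78% with Neurog3. Rpl12 and Rpsa are named here only because they passed this test, after their values were seen.

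Relative to the family, Rpl24 rose in all 4 comparisons, by 1.12 (SE 0.31, adjusted p = 0.0047) with Neurog1 and 1.32 (SE 0.31, adjusted p = 0.0014) with Neurog3 against the controls. Rps14 (ENSMUSG00000024608), a small subunit protein needed for maturation of its ribosomal RNA, rose against the controls, by 0.48 (SE 0.20, adjusted p = 0.04) and 0.64 (SE 0.20, adjusted p = 0.0087). Its share of all member counts, in percent, was 1.31, 1.28 and 1.27 in control replicates a, b and c, 1.19, 1.20 and 1.56 in the Neurog1 and 1.19, 1.74 and 1.49 in the Neurog3 libraries of day 1, and 1.81, 1.67 and 1.88 in the Neurog1 and 1.85, 1.91 and 2.23 in the Neurog3 libraries of day 13. The day 13 libraries of Neurog3 lay above all controls and all day 1 libraries. Those of Neurog1 lay above all controls and all Neurog1 day 1 libraries, but replicate b (1.67) was below Neurog3 day 1 replicate b (1.74). On the TMM scale Rps14 was the called member that fell least with Neurog1, by 0.71 (SE 0.28, adjusted p = 0.036) on the log2 scale, and with Neurog3 it did not pass the test, at -0.59 (SE 0.27, adjusted p = 0.077). Rpl39l, a copy of Rpl39 best known from testis, rose relative to the family between days with Neurog1, by 0.94 (SE 0.37, adjusted p = 0.033), but not with Neurog3, where the value was 0.65 (SE 0.37, adjusted p = 0.13). The difference between the factors was not called by the interaction term. Rpl39l was low throughout, with TMM-scaled levels in CPM of 5.42, 10.9 and 6.99 in control replicates a, b and c, 3.75, 5.76 and 8.39 in the Neurog1 and 4.30, 4.75 and 6.01 in the Neurog3 libraries of day 1, and 7.96, 3.40 and 3.79 in the Neurog1 and 6.33, 3.60 and 1.97 in the Neurog3 libraries of day 13, and its groups overlapped in the day 13 comparisons.

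Among the members that fell further than the family, Rps2 (ENSMUSG00000044533, chr17:24718116-24721929, plus strand), a small subunit protein whose arginines are methylated by Prmt3, did so in all 4 comparisons, by 0.44 (SE 0.17, adjusted p = 0.03) with Neurog1 and 0.50 (SE 0.17, adjusted p = 0.017) with Neurog3 against the controls on the log2 scale. Its TMM-scaled level in CPM was 2427, 3283 and 2669 in control replicates a, b and c, 2783, 2501 and 3201 in the Neurog1 and 2947, 1899.9 and 2475 in the Neurog3 libraries of day 1, and 1245, 815 and 657 in the Neurog1 and 1075, 766 and 718 in the Neurog3 libraries of day 13. Every day 13 library was below every other library. On the TMM scale it fell by 1.63 (SE 0.27, adjusted p = 1.2e-04) and 1.71 (SE 0.27, adjusted p = 7.8e-05), and with Neurog3 this was the largest fall of any called member against the controls. Rpsa, the small subunit protein also described as the precursor of the laminin receptor, fell relative to the family against the controls with both factors, by 0.42 (SE 0.16, adjusted p = 0.026) and 0.43 (SE 0.16, adjusted p = 0.022). Its level was 3597 ± 695 TMM-scaled CPM in the controls, 1191 ± 459.8 with Neurog1 and 1151 ± 329.9 with Neurog3 at day 13 (SD, n = 3). Rpl12, near the base of the stalk, fell relative to the family with Neurog1 against the controls and in both comparisons of days (adjusted p = 0.039, 0.02 and 0.043). Rpl3, close to the peptidyl transferase centre, did so with Neurog3 against the controls (adjusted p = 0.046), and with Neurog1 it missed the threshold (adjusted p = 0.056).

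**Figure D3:**
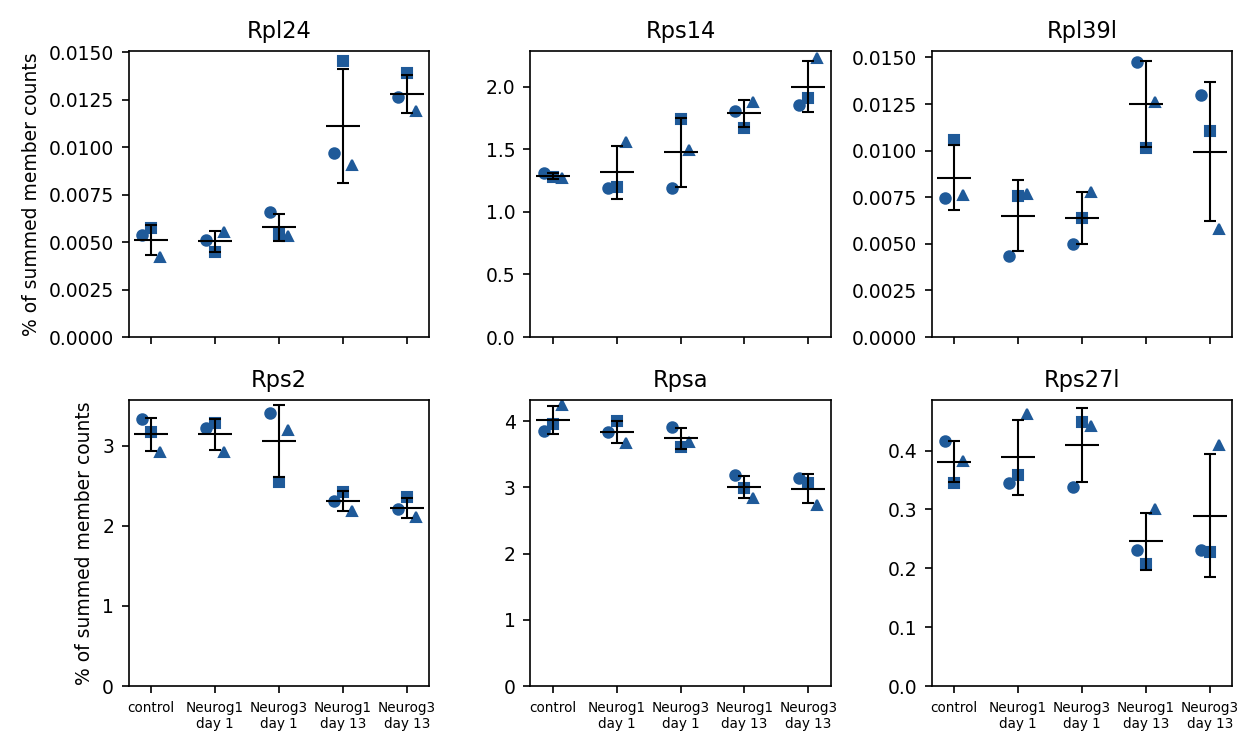
Share of all member counts (%, y axis, each panel with its own scale from 0) held by 6 members in each library, by group; points are libraries and bars the mean ± SD. Rpl24 and Rps14 hold a larger part of the family at day 13 than in the controls, and Rps2 and Rpsa a smaller one. In Neurog3 day 13, replicate c is the lowest for Rpl39l and the highest for Rps27l.

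Among the Rps27 genes, which encode small subunit proteins with a zinc finger, Rps27l had the largest fall with Neurog1 and Rps27rt the largest spread between replicates at day 1. Rps27l (ENSMUSG00000036781, chr9:66946086-66949516, plus strand), a paralogue known as a target of p53, had TMM-scaled levels in CPM of 303, 357 and 349.8 in control replicates a, b and c, 299, 272 and 507 in the Neurog1 and 292, 334 and 342 in the Neurog3 libraries of day 1, and 124, 69.5 and 90.1 in the Neurog1 and 113, 73.8 and 139 in the Neurog3 libraries of day 13. All day 13 libraries were below the others. It fell by 1.83 (SE 0.28, adjusted p = 5.8e-05) on the log2 scale with Neurog1 against the controls and by 1.93 (SE 0.28, adjusted p = 4.2e-05) against day 1, the largest falls of any called member in these comparisons, and by 1.63 (SE 0.28, adjusted p = 1.6e-04) with Neurog3 against the controls. Relative to the family it fell with Neurog1 (adjusted p = 0.042 against the controls) and not with Neurog3 (adjusted p = 0.19), where replicate c held 0.410% of the member counts against 0.232% and 0.227% in the others.

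Rps27rt (ENSMUSG00000050621, chr9:114982366-114982739, minus strand) has a coding sequence identical to that of Rps27 (ENSMUSG00000090733, chr3:90212522-90213651, minus strand) in 255 of 255 bases, so the split of reads between these genes is uncertain. Rps27rt had TMM-scaled levels in CPM of 38.8, 26.4 and 25.1 in control replicates a, b and c, 16.3, 20.8 and 58.7 in the Neurog1 and 16.6, 74.6 and 34.2 in the Neurog3 libraries of day 1, and 15.3, 9.06 and 10.4 in the Neurog1 and 11.6, 8.64 and 19.6 in the Neurog3 libraries of day 13. The highest values were in Neurog3 day 1 replicate b and Neurog1 day 1 replicate c, and Rps27 was highest in the same 2 libraries, at 625 and 711 TMM-scaled CPM against 279.7 and 302 in replicate a of these groups. The SD of Rps27rt over replicates was 0.98 log2 units with Neurog1 and 1.09 with Neurog3 at day 1, the largest of any member there, where the median member had 0.30 and 0.18. At day 13 Rps27rt fell with Neurog1 against the controls, by 1.38 (SE 0.52, adjusted p = 0.032), and against day 1, by 1.46 (SE 0.52, adjusted p = 0.025), and with Neurog3 against day 1, by 1.66 (SE 0.52, adjusted p = 0.014), but not with Neurog3 against the controls (log2 fold change -1.18, SE 0.52, adjusted p = 0.062). Rps27 fell by 1.0 (SE 0.33, adjusted p = 0.017) with Neurog1 and 0.95 (SE 0.33, adjusted p = 0.022) with Neurog3 against the controls.

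In the other paralogue pairs both genes mostly fell together at day 13. The identity of the aligned coding bases was 72.7% between Rpl22l1 and Rpl22, 87.9% between Rpl36al and Rpl36a, 85.3% between Rpl39l and Rpl39 and 64.8% between Rpl7l1 and Rpl7. Rpl22, which is dispensable for translation in most mouse cells, had 498 ± 106 TMM-scaled CPM in the controls, 283 ± 71.3 with Neurog1 and 249.7 ± 47.6 with Neurog3 at day 13 (SD, n = 3), and fell by 0.82 (SE 0.25, adjusted p = 0.0099) and 1.0 (SE 0.25, adjusted p = 0.0029). Rpl22l1, known to be held down by Rpl22, had 146 ± 49.99, 48.2 ± 13.3 and 44.9 ± 10.2 TMM-scaled CPM in these groups and fell by 1.59 (SE 0.30, adjusted p = 3.7e-04) and 1.70 (SE 0.30, adjusted p = 2.3e-04). The difference between the genes of a pair was not tested. Rpl36a, on the X chromosome, fell by 1.36 (SE 0.28, adjusted p = 6.5e-04) and 1.41 (SE 0.28, adjusted p = 5.4e-04), and its autosomal copy Rpl36al by 1.64 (SE 0.24, adjusted p = 4.6e-05) and 1.68 (SE 0.24, adjusted p = 3.9e-05). Rpl39 fell by 1.10 (SE 0.30, adjusted p = 0.0053) and 1.01 (SE 0.30, adjusted p = 0.0094), whereas Rpl39l did not pass the test (log2 fold changes -0.63, SE 0.45, adjusted p = 0.24, and -0.97, SE 0.45, adjusted p = 0.075).

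Both members with a family name and no structural place fell at day 13. Rpl7l1, whose relative in yeast acts in large subunit assembly, had 207 ± 11.1 TMM-scaled CPM in the controls, 83.9 ± 13.6 with Neurog1 and 89.0 ± 9.44 with Neurog3 at day 13, and fell by 1.30 (SE 0.18, adjusted p = 1.9e-05) and 1.22 (SE 0.17, adjusted p = 3.5e-05). Rpl7 itself fell by 0.90 (SE 0.25, adjusted p = 0.0063) and 0.84 (SE 0.25, adjusted p = 0.01), the latter the smallest fall of any called member in that comparison. Rps19bp1, which binds Rps19 and was described as a regulator of Sirt1, fell by 0.94 (SE 0.25, adjusted p = 0.0043) and 0.96 (SE 0.25, adjusted p = 0.004). Between days with Neurog3, Rpl29 fell least among the called members, by 0.69 (SE 0.25, adjusted p = 0.03).

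Levels between genes were compared per length, as CPM on library totals divided by the length of the principal transcript in kb. The median core gene had 1030 CPM per kb over all libraries. The 5 highest members were Rplp1, Rpl41, Rps18, Rps2 and Rplp0. Rplp1, a stalk protein that recruits the translational GTPases, had 4544 ± 1333 CPM per kb in the controls, 2301 ± 806 with Neurog1 and 2109 ± 580.3 with Neurog3 at day 13 (SD, n = 3). Rpl41, one of the shortest proteins known, had 3749 ± 961 in the controls, 1635 ± 503 and 1770.0 ± 345. In the controls, the ranges of mean ± SD of Rps18 (2292 ± 599), Rps2 (2553 ± 478) and Rplp0, the stalk base (2253 ± 270.4), overlapped. The order depends on the length chosen: with the union of all annotated exons, Rplp1 stayed first, Rps18 moved from place 3 to 33 and Rps14 from 8 to 37.

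On the TMM scale, Rplp1 fell by 1.25 (SE 0.31, adjusted p = 0.0028) with Neurog1 and 1.40 (SE 0.31, adjusted p = 0.0013) with Neurog3 against the controls, and Rplp0 by 1.05 (SE 0.28, adjusted p = 0.0044) and 1.09 (SE 0.28, adjusted p = 0.0035). All 3 stalk genes and all 4 X-linked members were among the 80 members that fell in each of the 4 day 13 comparisons, where 26.4% to 27.3% of all genes fell. On library totals 3 of the 4 X-linked members fell with Neurog3 against the controls. The stalk genes that fell with Neurog1 against the controls numbered 2 to 3 over the alternative fits. The concentration of the family's counts was similar in all libraries: 22 to 24 members held 50% of its counts in each library, and the 10 highest held 26.7% to 29.0%. The single highest, which was Rplp0, Rpsa or, in Neurog3 day 13 replicate c, Rps3a1, held 3.40% to 4.61%. Of the 85 members with counts, 75 and 69 were within 5 places of their rank in the controls at day 1 (Neurog1, Neurog3), and 56 and 57 at day 13, with 18 places the largest move in either day 13 group.

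**Figure D4:**
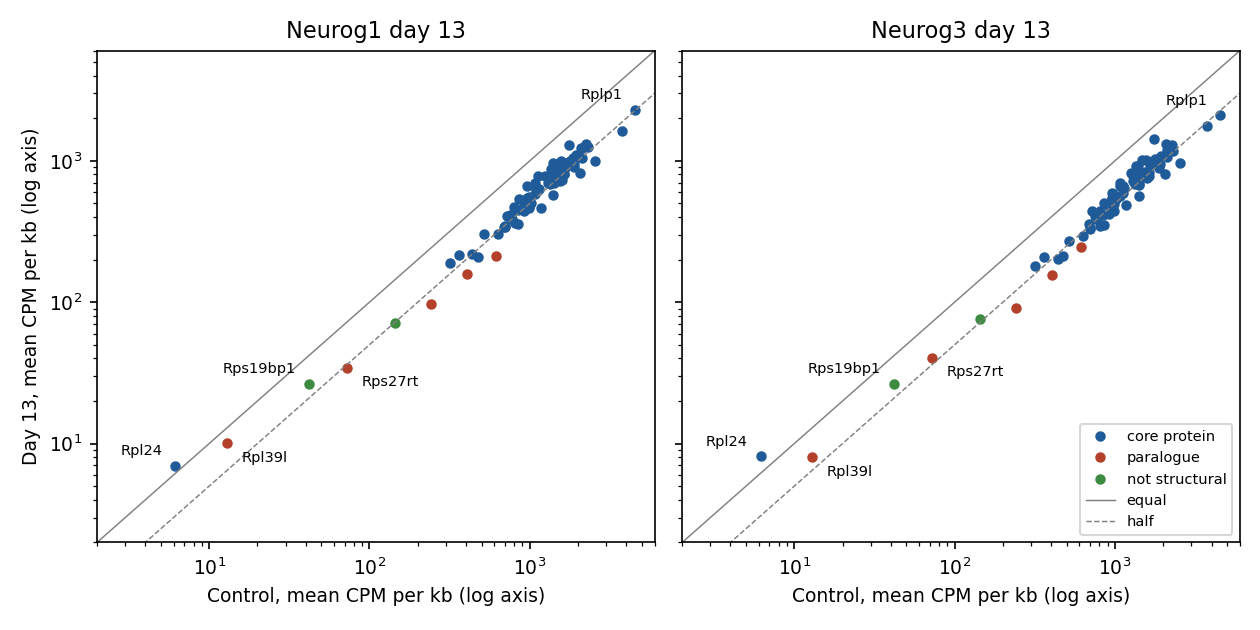
Mean CPM per kb of principal transcript (log axes) in the controls (x) and at day 13 (y), Neurog1 left and Neurog3 right, for the 84 members that passed the filter; solid line, equal levels, dashed line, a ratio of 0.5. Most members lie along the dashed line, and Rpl24 lies above the line of equal levels.

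Genes that work with the ribosome were taken from lists assembled with earlier results of these data known. Rack1, a scaffold on the small subunit that lies outside the symbol rule, fell by 1.28 (SE 0.24, adjusted p = 3.7e-04) with Neurog1 and 1.33 (SE 0.24, adjusted p = 2.7e-04) with Neurog3 against the controls, and Fau, also outside it, which encodes a ubiquitin-like fusion with Rps30, by 0.89 (SE 0.25, adjusted p = 0.0069) and 0.80 (SE 0.25, adjusted p = 0.014). Of the 3 genes in the list that holds Rack1 and Fau, 2 fell with Neurog1 and 3 with Neurog3 against the controls, where 26.8% and 26.4% of all genes fell. On library totals 2 and 1 fell. The ubiquitin fusion Rps27a, a member, fell in all 4 day 13 comparisons.

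Most ribosome biogenesis factors fell at day 13: 41 of 42 with Neurog1 and 40 of 42 with Neurog3 against the controls, with 0 rising, medians of -1.43 and -1.53, and 41 and 40 against day 1. Of all genes tested, 26.8% and 26.4% fell and 32.6% and 31.2% rose against the controls, and 27.3% and 26.8% fell against day 1. On library totals 39 and 40 of the biogenesis factors fell against the controls. Nucleophosmin (Npm1), a nucleolar chaperone and the highest of the list, had 1715 ± 134 TMM-scaled CPM in the controls, 475 ± 128 with Neurog1 and 436 ± 76.0 with Neurog3 at day 13, and fell by 1.85 (SE 0.27, adjusted p = 3.3e-05) and 1.98 (SE 0.27, adjusted p = 2.0e-05). Rrp1, which acts in large subunit assembly, was the highest that did not pass, at -0.21 (SE 0.22, adjusted p = 0.42) and -0.28 (SE 0.22, adjusted p = 0.29). Initiation factors fell in 26 and 24 of 34 cases, with 0 rising and medians of -0.90 and -0.91. On library totals 20 of them fell with each factor, and 1 and 2 rose. Without Neurog3 day 13 replicate b, or with the replicate block, 1 rose with Neurog3. Eif4g2 fell by 0.73 (SE 0.19, adjusted p = 0.0043) and 0.61 (SE 0.19, adjusted p = 0.013), whereas the helicase Eif4a2 did not pass, at 0.38 (SE 0.20, adjusted p = 0.12) and 0.41 (SE 0.20, adjusted p = 0.094). Of genes with TOP mRNAs that are not ribosomal, 16 of 18 fell with each factor and 0 rose, and of mitochondrial ribosomal protein genes 58 and 54 of 76 fell and 0 rose. On library totals 13 and 15 of the TOP list fell, and 44 and 36 of the mitochondrial list. Some genes, such as Eef1a1, Eif3e and Rack1, are in more than 1 of these lists.

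Elongation factors fell in 7 of 9 cases with each factor against the controls, and 1 rose, where 26.8% and 26.4% of all genes fell and 32.6% and 31.2% rose. On library totals 6 fell with each factor. Eef1a1, which delivers aminoacyl-tRNA, had 15213 ± 1592 TMM-scaled CPM in the controls, 7244 ± 1468 with Neurog1 and 7328 ± 1391 with Neurog3 at day 13, and fell by 1.07 (SE 0.25, adjusted p = 0.0016) and 1.05 (SE 0.25, adjusted p = 0.0019). Eef2, the translocase, did not pass the test (log2 fold changes 0.18, SE 0.22, adjusted p = 0.51, and -0.012, SE 0.22, adjusted p = 0.97). The gene that rose was Eef1a2, the form of mature neurons and muscle, named after its values were seen. It had 0, 0.0640 and 0.301 TMM-scaled CPM in the controls, 0 in all 6 libraries of day 1, 34.3, 67.2 and 44.4 with Neurog1 and 22.3, 37.7 and 13.9 with Neurog3 at day 13 (adjusted p = 1.6e-06 and 3.5e-06 against the controls).

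RNA polymerase I and its factors, which make ribosomal RNA, fell in 7 of 11 cases with each factor against the controls, and 2, Ubtf and Taf1c, rose. Of all genes, 26.8% and 26.4% fell and 32.6% and 31.2% rose, so the part of the list that rose is below that background. With library totals as the scale, 4 fell with Neurog1. Without control replicate a or b, or Neurog1 day 13 replicate a or b, 1 rose with Neurog1, and without control replicate a or c, or Neurog3 day 13 replicate a or b, 1 rose with Neurog3. Ubtf, the upstream binding factor, had 142 ± 20.6 TMM-scaled CPM in the controls, 207 ± 22.7 with Neurog1 and 225 ± 30.3 with Neurog3 at day 13. Of 5 snoRNA host genes tested, whose introns carry guides for ribosomal RNA modification, 3 and 4 fell and 0 rose. Without control replicate a or c, 1 fell with Neurog1, and without Neurog1 day 13 replicate b or c, or on library totals, 0. With Neurog3, 2 fell without Neurog3 day 13 replicate b and 1 on library totals. Of 18 growth control genes, 8 fell and 6 rose with each factor against the controls, and the part that rose is near the background of all genes (32.6% and 31.2%). Those that rose were Mtor and Rptor of the TOR complex, its inhibitors Tsc1 and Tsc2, and Mycl and Mycn. Mtor had 33.2 ± 2.35 TMM-scaled CPM in the controls, 85.6 ± 17.0 with Neurog1 and 110.2 ± 32.9 with Neurog3 at day 13. Myc, an activator of ribosomal genes, fell by 1.34 (SE 0.56, adjusted p = 0.049) and 1.86 (SE 0.57, adjusted p = 0.011), and Mdm2, which ribosomal proteins can bind, by 1.93 (SE 0.30, adjusted p = 7.6e-05) and 1.83 (SE 0.30, adjusted p = 1.2e-04). Larp1 did not pass (log2 fold changes 0.45, SE 0.21, adjusted p = 0.078, and 0.47, SE 0.21, adjusted p = 0.064). With library totals, 5 and 4 of the growth control genes fell, and without Neurog1 day 13 replicate b 5 fell with Neurog1. At day 1 against the controls, Mtor, Rptor and Mycl of this list rose with both factors, Cdkn1a rose with Neurog3, and Rps6kb1 fell with Neurog1, where 6.78% and 7.19% of all genes rose and 5.42% and 5.59% fell. The 1 fall of 18 is near that background. The fall of Rps6kb1 was lost without any 1 of the controls or of the Neurog1 day 1 libraries. It was also lost without Neurog3 day 1 replicate a or c, without Neurog1 day 13 replicate b, and on library totals. With Neurog3, 2 genes in place of 4 rose without any 1 of the controls, without Neurog3 day 1 replicate b, or with upper-quartile factors.

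**Figure D5:**
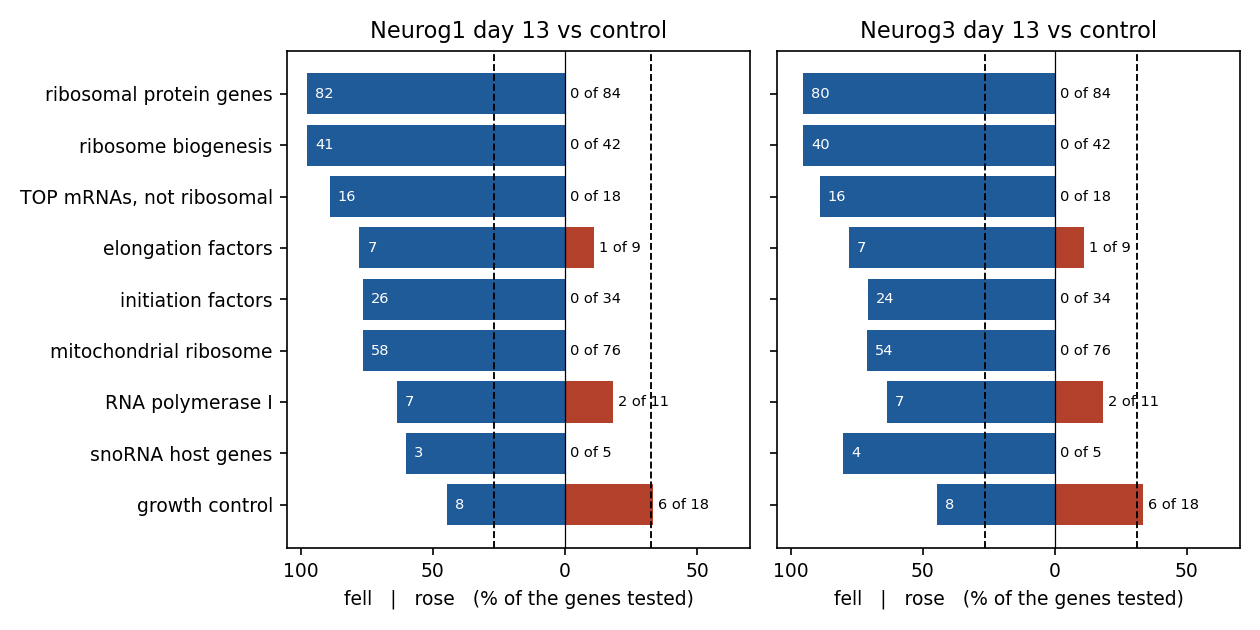
Percentage of the genes tested in each list that fell (left of 0) or rose (right of 0) at adjusted p under 0.05 at day 13 against the controls, with the counts; dashed lines give the percentage over all 16872 genes. The ribosomal protein genes (82 and 80 of 84) and the biogenesis factors (41 and 40 of 42) fell most widely, and the 6 of 18 growth control genes that rose lie near the dashed line.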

How the data were processed

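RNA from 15 libraries in 5 groups of 3 was measured by RNA sequencing (TRIzol extraction, NEBNext Ultra kit). The authors deposited raw read counts per Ensembl gene; CASAVA, HISAT2, featureCounts and mm10 are named per the submitters' processing notes, and these notes give no version, annotation release, strand or multi-mapper setting. From these counts, 1 model with 5 groups was fitted over all 15 libraries with edgeR 4.0.16 in R 4.3.3 (quasi-likelihood test, TMM scaling, filterByExpr, 16872 genes, Benjamini-Hochberg adjusted p under 0.05, 9 contrasts). All adjusted p-values in the text are from edgeR unless DESeq2 1.42.0 is named. The script was tested on simulated data. In all, 24 alternative fits were run: 7 planned, 15 that each left out 1 library, and 2 added after the data were seen. The result given is that of the fit planned first, whatever the others showed.

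The members and lists were chosen with earlier results of these data known. Outlying means more than 1 log2 unit from the members' median. Named were the outlying members, the called members with the lowest and highest change in each day 13 comparison, the 5 highest and lowest per length, the paralogue pairs, and the highest called and highest uncalled gene of each list; genes named otherwise are said to be so or are given as examples of a list, chosen after their values were seen. Replicates of the same letter deviated together between the factors within a day (correlations of 0.325 to 0.539 at day 1 and 0.521 to 0.580 at day 13) and were taken as pairs there, from the data. Between the controls and day 1 they were 0.0509 to 0.364 with Neurog1 and 0.0564 to 0.321 with Neurog3. Different letters gave at most 0.0493 and 0.0675 there. Between days they were 0.0158 to 0.0722 with Neurog1 and 0.0648 to 0.242 with Neurog3. Between the controls and day 13 they were negative. Gene names are from GENCODE M21 on mm10, which named 42548 of 43432 identifiers. Library totals of 14869015 to 17859844 counts limit the precision of low genes such as Rpl24. A single gene of the lists was left out of the text and is not reported here.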

Additional observations from a re-analysis of the deposited data

How the results depend on the processing

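Over 22 alternatives other than the scaling to the summed members, 74 to 83 members fell with Neurog1 and 76 to 82 with Neurog3 at day 13 against the controls. Against day 1, 77 to 82 and 68 to 82 fell, and 0 rose in any. For named members, 126 pairs of a member and a comparison were followed. Of these, 11 lost their call on library totals and 2 with upper-quartile factors. Over the fits leaving out 1 library, 28 calls were lost, 10 were gained and 1852 results kept their label. Scaled to the summed members, 2 rose and 4 fell with Neurog1 and 2 and 3 with Neurog3 against the controls, and 2 and 3 and 1 and 2 against day 1; this scale removes the family's own change by construction. On it, these log2 fold changes turned positive (Neurog1 then Neurog3 against the controls, then against day 1): Rps14 0.48 with Neurog1 against the controls and 0.44 against day 1; Rps27 0.19, 0.29 and, with Neurog1, 0.15; Rpl22 0.40, 0.24, 0.38 and 0.17; Rpl39 0.099, 0.25 and, with Neurog3, 0.090; Rplp0 0.12, 0.093, 0.11 and 0.022; Rpl7 0.30, 0.39, 0.30 and 0.36; Rpl29 0.17, 0.19, 0.20 and 0.36; Rps19bp1 0.24, 0.21, 0.077 and 0.033. With TMM effective library sizes the summed member share difference, Neurog3 day 13 vs day 1, was -4.10 percentage points (-3.21 on library totals), and the summed member share difference, Neurog1 day 13 vs control, was -5.01 (-3.82), the summed member share difference, Neurog3 day 13 vs control, was -5.09 (-3.85) and the summed member share difference, Neurog1 day 13 vs day 1, was -5.16 (-3.99); the cause was not tested. With the replicate block, members that fell stayed at 82, 80, 82 and 81 in number, and 0 passed between the factors, where the letters pair the libraries; the median there was -0.18 at day 1 and -0.031 at day 13, and -0.17 and -0.0041 with the block within each day. The block changed no count of members past the adjusted threshold. At an unadjusted p under 0.05 it moved the members from 0 to 1 for Neurog3 at day 1 against the controls and from 83 to 82 at day 13. Some counts of the other lists at day 1 against the controls moved with the block. Growth control genes that rose with Neurog1 went from 3 to 5, and initiation factors that rose went from 0 to 2 with each factor.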
